A study of Mus musculus with 74 samples.

Results

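Windows of the mouse genome that carried an H3K9me3 peak 14 h after activation of SCNT embryos (14 hpa), and no trace of one in any other deposited list, are described here. H3K9me3 (histone H3 carrying 3 methyl groups on lysine 9) was measured by ULI-NChIP-seq, a native ChIP-seq for very few cells in which chromatin is cut with micrococcal nuclease and not crosslinked. The 10 peak lists cover donor cumulus cells (CC) from BDF1 mice, SCNT embryos made from CC nuclei and B6D2F1 oocytes at 6 and 14 hpa and at the 2-cell, 4-cell, 8-cell and morula stages, both lineages of the SCNT blastocyst (ICM, the inner cell mass, and TE, the trophectoderm), and fertilized C57BL/6 zygotes at pronuclear stage 5 (PN5). All SCNT constructs had been activated with SrCl2 and cytochalasin B, and the labels name 4 precipitated and 4 input libraries at 14 hpa, pooled into 1 list. PN5 thus differs from the SCNT lists in strain and type of embryo at once, and these cannot be told apart.

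The autosomes were cut into 1-kb windows, and a window was chosen when 14 hpa peaks covered at least 500 bases of it and the 9 other lists covered 0 bases. This gave 4661 of 2462755 windows (0.189%), or 2.39% of the 194643 autosomal windows with at least 500 bases covered at 14 hpa. They are called 14 h-only windows. They were selected on the position and coverage of the 14 hpa peaks, so their 14 hpa fold and q-value are given as a description and not as a result. Where a list has no peak, the mark was only not detectable over the caller's threshold, so its absence before or after 14 hpa is not shown, and the label transient is not established by these lists. Each list is 1 pooled value, so no replicate error exists, and percentages carry Wilson 95% intervals that cover counting error only. Neighbouring windows are not independent.

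H3K9me3 is written by methyltransferases such as SUV39H1, SUV39H2 and SETDB1, is bound by HP1 proteins, and is removed by KDM4 demethylases. It covers pericentromeric satellite, transposable elements and gene-poor, AT-rich chromatin in somatic cells. In early embryos the mark is rebuilt while the embryo's own transcription starts, and in SCNT embryos the donor nucleus brings its somatic pattern with it.

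The windows were short and scattered, so stretches from the 5 longest runs, from the most marked gene and from the strong peak that carries a 14 h-only window show what kind of sequence was marked. All are plus-strand sequence of GRCm38.p6 (mm10), and capitals mark each CpG dinucleotide, the usual site of DNA methylation.

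run in an Eps8 intron, chr6:137597401-137597600: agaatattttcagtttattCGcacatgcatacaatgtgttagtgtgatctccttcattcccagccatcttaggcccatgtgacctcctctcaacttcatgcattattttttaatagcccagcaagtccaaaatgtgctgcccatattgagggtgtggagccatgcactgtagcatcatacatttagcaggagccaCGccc
run with no gene, chr8:62436401-62436600: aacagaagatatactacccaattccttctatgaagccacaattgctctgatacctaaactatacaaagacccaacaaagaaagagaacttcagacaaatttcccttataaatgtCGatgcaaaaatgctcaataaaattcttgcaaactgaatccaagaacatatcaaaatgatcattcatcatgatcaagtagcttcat
run with no gene, chr2:107432401-107432600: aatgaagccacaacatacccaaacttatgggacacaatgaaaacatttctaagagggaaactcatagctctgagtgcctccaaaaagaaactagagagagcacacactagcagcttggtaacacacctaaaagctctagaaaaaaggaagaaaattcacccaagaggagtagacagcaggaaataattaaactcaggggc
run near Ccdc126, chr6:49349401-49349600: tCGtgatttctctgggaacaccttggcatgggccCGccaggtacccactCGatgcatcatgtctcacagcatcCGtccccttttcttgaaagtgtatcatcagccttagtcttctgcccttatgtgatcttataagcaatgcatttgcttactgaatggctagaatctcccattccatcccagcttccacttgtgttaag
run with no gene, chr1:5456401-5456600: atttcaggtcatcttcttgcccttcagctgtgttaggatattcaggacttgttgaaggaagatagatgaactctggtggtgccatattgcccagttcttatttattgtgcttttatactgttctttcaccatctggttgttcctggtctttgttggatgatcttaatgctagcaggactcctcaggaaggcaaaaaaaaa
Pkhd1 intron, chr1:20457401-20457600: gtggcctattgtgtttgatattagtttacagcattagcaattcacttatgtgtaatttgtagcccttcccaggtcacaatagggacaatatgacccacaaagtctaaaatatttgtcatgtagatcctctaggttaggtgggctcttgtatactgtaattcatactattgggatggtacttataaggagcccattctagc
peak in a Gm20388 intron, chr8:121688486-121688685: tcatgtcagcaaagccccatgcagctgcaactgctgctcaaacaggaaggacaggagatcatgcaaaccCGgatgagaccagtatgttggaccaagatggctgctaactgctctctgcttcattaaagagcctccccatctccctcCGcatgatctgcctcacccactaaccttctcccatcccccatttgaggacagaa

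These 7 stretches of 200 bases held between 0 CpG and the 4 of the run near Ccdc126. The GC content of the stretches lay between 33.0% in the run on chromosome 8 and 52.5% in the Gm20388 peak.

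Few 14 hpa windows were free of every other list. Of the 194643 windows, 18.92% were touched by all 9 other lists, 6.69% (13014 windows) by exactly 1, and 2.39% by 0. Among the 13014 windows with a single partner, CC was that partner in 5753 (44.21%) and PN5 in 3451 (26.52%). The remaining lists each took between 327 windows (TE) and 1013 windows (6 hpa). The partners differed in composition, since 61.41% of the windows shared with CC alone had GC below 40%, against 22.46% of those shared with PN5 alone.

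By the same rule the other lists gave between 409 windows of their own at the 2-cell stage and 25321 in PN5. CC had 19253, 6 hpa 8107, the 8-cell stage 7802, the morula 3670, the 4-cell stage 2795, ICM 2131 and TE 1688. As a share of each list's own windows, the 14 hpa value of 2.39% (2.33 to 2.46) lay above that of the morula (2.19%, 2.12 to 2.26), without overlap of the intervals. It was below the shares of the 8-cell stage (5.33%), 6 hpa (6.83%), CC (9.74%) and PN5 (21.92%), and above those of the 4-cell, ICM, TE and 2-cell lists (0.368% to 1.962%).

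Most 14 h-only windows stood alone. They formed 4419 runs, of which 4186 were a single window, 224 spanned 2 kb and 9 spanned 3 kb. In 2812 windows (60.33%, 58.92 to 61.73) every touching 14 hpa peak was itself free of overlap with any other list. The other 1849 windows lay on stretches of 14 hpa peaks that other lists touched elsewhere along the peak. Those 1773 shared peaks had a partner in CC in 54.43% of cases, in the morula in 48.84% and in PN5 in 33.73%, and 569 of them had only 1 partner list.

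The peaks under the windows were lower in fold and in −log10 q than those under the other 14 hpa windows. Fold over input in the windows ran from 1.80 to 7.15 with a median of 2.60, against a median of 2.99 in the other 14 hpa windows. The median −log10 q was 2.25 against 3.77 in the other 14 hpa windows. Low values were not particular to 14 h-only windows. In their own lists, CC-only, 6 h-only and PN5-only windows had median folds of 2.68, 2.64 and 2.84. Their median −log10 q was 2.42, 2.03 and 1.90. In all, 807 windows (17.31%) had a fold of at least 3, and 340 (7.29%) a −log10 q of at least 5. Among the other 14 hpa windows these shares were 49.47% and 33.00%. Close to the coverage threshold these values were much alike on both sides. The 773 windows covered by 500 bases or less than 50 more had a median fold of 2.59 and 56.92% of them GC below 40%. The 932 windows that fell at most 50 bases short had a median fold of 2.57 and 57.40% with GC below 40%. A further 551 windows were lost because another list covered 1 to 50 bases of them, and 59.17% of these had GC below 40%.

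Base composition, which the rule did not use directly, differed between the 14 h-only windows and the rest of the 14 hpa mark. GC content had a median of 38.7% in the 14 h-only windows, with 1 window in 10 below 34.5% and 1 in 10 above 45.3%. In the 189982 other 14 hpa windows the median was 44.3%. GC was below 40% in 59.36% of the 14 h-only windows (57.95 to 60.77) and in 19.35% of the other 14 hpa windows (19.17 to 19.52). The share was higher in the 14 h-only windows on 19 of 19 autosomes, by 25.52 to 45.96 percentage points. Over all autosomal windows the share was 38.18%, and over the 1522545 windows with no peak base in any list it was 43.68%. The rule drops windows touched by GC-rich lists such as PN5, so it could act on composition indirectly. With the PN5 list left out of the rule the share was 43.66%, no longer above that of windows with no peak.

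CpG dinucleotides were correspondingly sparse. The 14 h-only windows held 6.07 CpG per kb, the other 14 hpa windows 11.5 and windows with no peak 7.98. A window of 20 or more CpG was found in 1.57% of the 14 h-only windows (1.25 to 1.97) and in 28492 of the 189982 other 14 hpa windows. The observed-to-expected CpG ratio was 0.156 in the 14 h-only windows, 0.233 in the other 14 hpa windows and 0.187 in windows with no peak.

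In composition the 14 h-only windows lay nearest the windows found in ICM alone, then those found in CC alone, and far from those found at 6 hpa alone or in PN5 alone. Median GC was 39.1% in ICM-only and 37.8% in CC-only windows. GC was below 40% in 55.61% of ICM-only windows, in 69.11% of CC-only windows (68.45 to 69.75), in 4.01% of 6 h-only windows (3.603 to 4.458) and in 10.41% of PN5-only windows (10.04 to 10.80). A GC content of at least 50% was seen in 1.80% of the 14 h-only windows, 0.317% of CC-only windows, 59.96% of 6 h-only windows and 29.88% of PN5-only windows. The 6 h-only and 14 h-only windows, both from 1-cell SCNT embryos, thus lay far apart in GC content.

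The contrast with 6 h-only and PN5-only windows was also seen when only windows open to selection were counted. A candidate was a window with 0 bases covered in the 9 other lists, and 1544455 windows were candidates at 14 hpa, of which 0.302% were marked. That share was highest at 36 to 38% GC, where 0.542% of candidates (0.509 to 0.577) were 14 h-only. It was 0.220% below 34% GC and 0.0753% (0.0609 to 0.0933) at 50% GC and above. For 6 hpa the same share rose from 0.00890% below 34% GC to 3.82% at 50% and above, and for PN5 from 0.0519% to 5.95%. The 14 hpa candidates leave out windows touched by GC-rich lists such as PN5, so these shares are not separate from that exclusion. They were not recomputed without PN5.

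**Figure D1:**
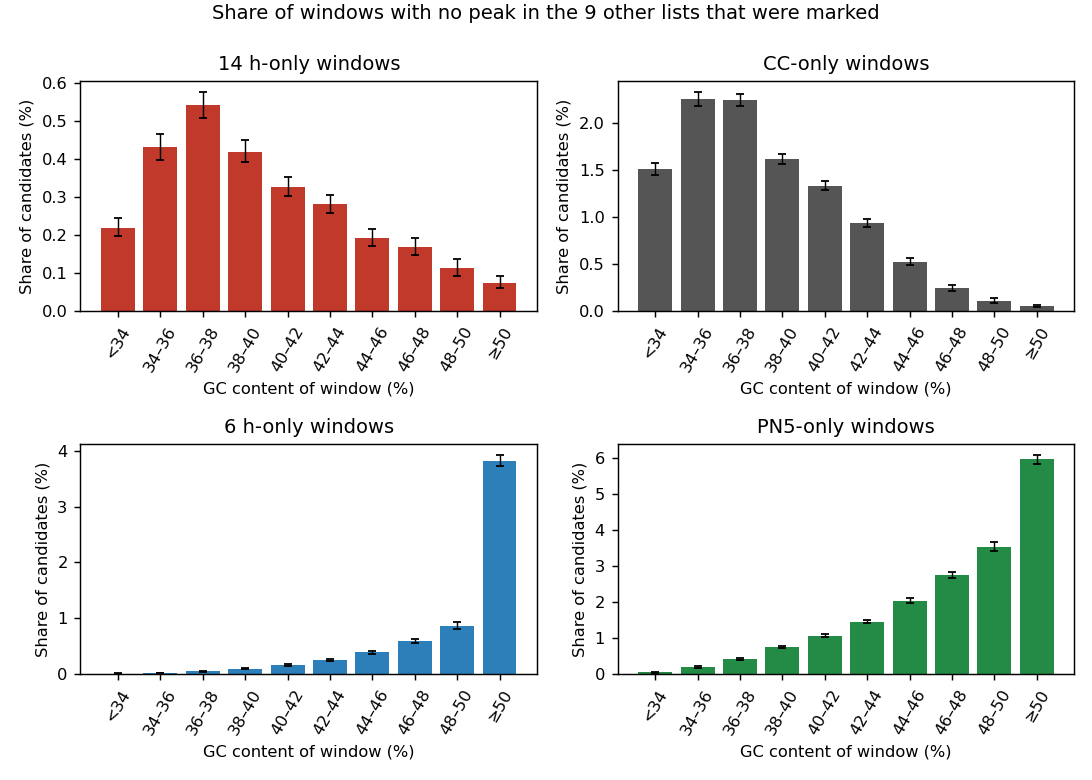
Share of candidate windows (no peak base in the 9 other lists, in percent, each panel on its own axis) that were marked in 1 list alone, by GC content of the window, with Wilson 95% intervals as bars. The 14 h-only panel is highest at 36 to 38% GC and the CC-only panel at 34 to 36% (2.26%, and 2.25% at 36 to 38%), whereas the 6 h-only and PN5-only panels rise to 3.82% and 5.95% in the class of at least 50% GC.

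Repeats took up more of the 14 h-only windows than of unmarked sequence. Soft-masked bases, the part of the reference flagged as repeats or low complexity, made up 50.61% of the 14 h-only windows, 56.00% of the other 14 hpa windows and 28.31% of windows with no peak. The 14 h-only share was above that of windows with no peak on 19 of 19 autosomes, and above that of other 14 hpa windows on 1 of 19. Among candidates the marked share climbed from 0.120% (0.108 to 0.134) in windows with under 10% masked bases to 2.00% (1.88 to 2.12) in windows with at least 90%. In absolute numbers, 1104 of the 4661 windows were masked over at least 90% of their bases. The masking does not name repeat families, which were not analysed here.

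Copies of the sequence elsewhere in the genome were counted with 3 words of 32 bases per window over the autosomes and X. All 3 words were unique in 53.59% of the 14 h-only windows (52.16 to 55.02), and none was unique in 15.73% (14.71 to 16.80). In 4661 windows drawn from each comparison set, none was unique in 29.86% of the other 14 hpa windows, 21.45% of CC-only, 2.94% of 6 h-only, 1.12% of PN5-only and 2.06% of windows with no peak. The paper's reads were paired and longer than these words, so a repeated word does not by itself make a read ambiguous. A read that matches several loci equally well cannot be assigned to 1 locus. How the authors' alignment placed such reads is not given in the sources used here.

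Relative to genes, the 14 h-only windows lay mostly in intergenic DNA. No annotated gene was touched by 65.76% of them (64.38 to 67.11), by 65.39% of the other 14 hpa windows and by 45.63% of windows with no peak. The share exceeded that of windows with no peak on 19 of 19 autosomes and that of other 14 hpa windows on 10 of 19, so on the second comparison the sets did not differ beyond their spread. That likeness depended on the PN5 list, since without it in the rule the share was 54.22%, against 65.88% of other 14 hpa windows. An exon was touched by 6.95% of the 14 h-only windows (6.26 to 7.72), close to CC-only windows (7.21%), and by 8.36% of the other 14 hpa windows, 14.90% of windows with no peak, 43.48% of 6 h-only and 26.78% of PN5-only windows. The median distance to the nearest start of a protein-coding gene was 132 kb, against 85.0 kb for the other 14 hpa windows, 68.9 kb for windows with no peak, 111 kb for CC-only, 11.1 kb for 6 h-only and 40.8 kb for PN5-only windows. Within 5 kb of such a start lay 4.78% of the 14 h-only windows (4.21 to 5.43) and a like share of the other 14 hpa windows (4.64%, 4.35 to 4.94). The share was 6.30% for CC-only windows, 8.19% for windows with no peak and 39.03% for 6 h-only windows.

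Among candidates, which PN5 and the 8 other lists did not touch, composition and position were both associated with the share marked. Among candidates with GC below 40%, 0.511% (0.488 to 0.534) of those outside genes and 0.281% (0.263 to 0.301) of those in genes were 14 h-only. Among candidates of higher GC the shares were 0.345% and 0.140%. These shares were not recomputed without PN5 in the rule. Without it, 43.66% of the 14 h-only windows had GC below 40% and 54.22% lay outside genes.

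Long non-coding RNA genes showed no excess. Genes of the lincRNA class were touched by 3.80% of the 14 h-only windows (3.29 to 4.38), 5.45% of the other 14 hpa windows and 4.53% of windows with no peak. Processed pseudogenes were touched by 35 windows (0.751%, 0.540 to 1.04), between 1.35% in the other 14 hpa windows and 0.479% in windows with no peak.

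Every autosome held 14 h-only windows, from 88 on chromosome 19 to 440 on chromosome 1. Density ran from 1.36 per Mb of assembled sequence on chromosome 18 to 2.75 per Mb on chromosome 8, a mean of 1.91 ± 0.385 per Mb (SD over 19 autosomes). As a share of the 14 hpa windows of a chromosome, the 14 h-only windows made up 1.38% on chromosome 5 and 1.54% on chromosome 7 at the low end, and 3.54% on chromosome 6 and 3.80% on chromosome 1 at the high end. Chromosome 7 combined a high density (2.38 per Mb) with a low share because it held the most 14 hpa windows of all (21966).

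**Figure D2:**
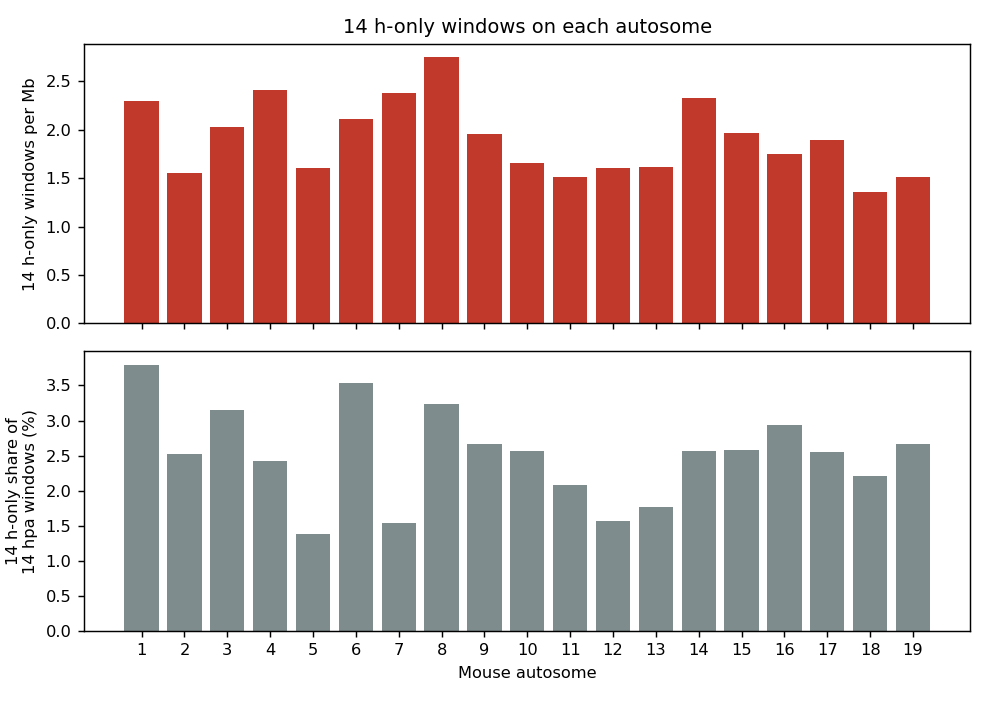
14 h-only windows on each mouse autosome, as windows per Mb of assembled sequence (upper bars) and as percent of the chromosome's 14 hpa windows (lower bars). Density lies between 1.36 and 2.75 per Mb, and the share is lowest on chromosome 5 (1.38%) and highest on chromosome 1 (3.80%).

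Although none of the other lists touched the windows, their peaks lay close by. Of the 14 h-only windows, 68.72% (67.37 to 70.03) had a CC peak within 5 kb, against 27.34% (26.73 to 27.97) of 20000 windows drawn from those with no peak in any list. The window itself was empty in these lists for both sets by construction. The sets were otherwise unlike, since 1849 of the 4661 windows lay on 14 hpa peaks that another list touched further along. Windows with no peak also lacked 14 hpa peaks, so the shares close to the window were partly fixed by these definitions. The morula gave 67.95% and 30.20%, 6 hpa 64.34% and 28.74%, and the 2-cell list 50.83% and 14.70%. PN5 had the lowest share among the 9 lists around 14 h-only windows, 42.42% against 28.41%. Median distance to the nearest peak was 1854 bp in CC, 2248 bp in morulae, 2890 bp at 6 hpa, 4841 bp at the 2-cell stage and 7039 bp in PN5.

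Over 50 kb on either side, CC peaks covered 15.1% of the sequence around 14 h-only windows. This was 3.40 times the 4.46% around windows with no peak and 1.71 times the CC coverage of the autosomes (8.86%). Around 20000 of the other 14 hpa windows CC coverage was higher, at 30.7%, and so was the coverage by each of the remaining lists. The ratio to windows with no peak was 2.17 at 6 hpa, 2.04 in the 2-cell list, 1.84 in the morula list, and between 1.63 and 1.73 in the 4-cell, 8-cell, ICM and TE lists. It was above 1 on 19 of 19 autosomes in each of these 8 lists, with a range of 2.03 to 4.66 for CC. For PN5 the ratio was 1.07, and it was above 1 on 14 of 19 autosomes, with a range of 0.834 to 1.33.

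The difference reached beyond the immediate flanks. Between 100 and 200 kb from the window the CC ratio was still 2.64, the 6 hpa ratio 1.72 and the 2-cell ratio 1.54, whereas PN5 stood at 0.978. Close in, between 0.5 and 1.5 kb from the window edge, the ratios were 8.92 in the 2-cell list, 7.83 in CC, 4.96 in the morula and 2.38 in PN5. The 2-cell value near the window rested on low coverage on both sides, 5.69% around 14 h-only windows and 0.638% around windows with no peak. These near ratios were also partly fixed by the 14 h-only windows that lay on peaks touched by another list.

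**Figure D3:**
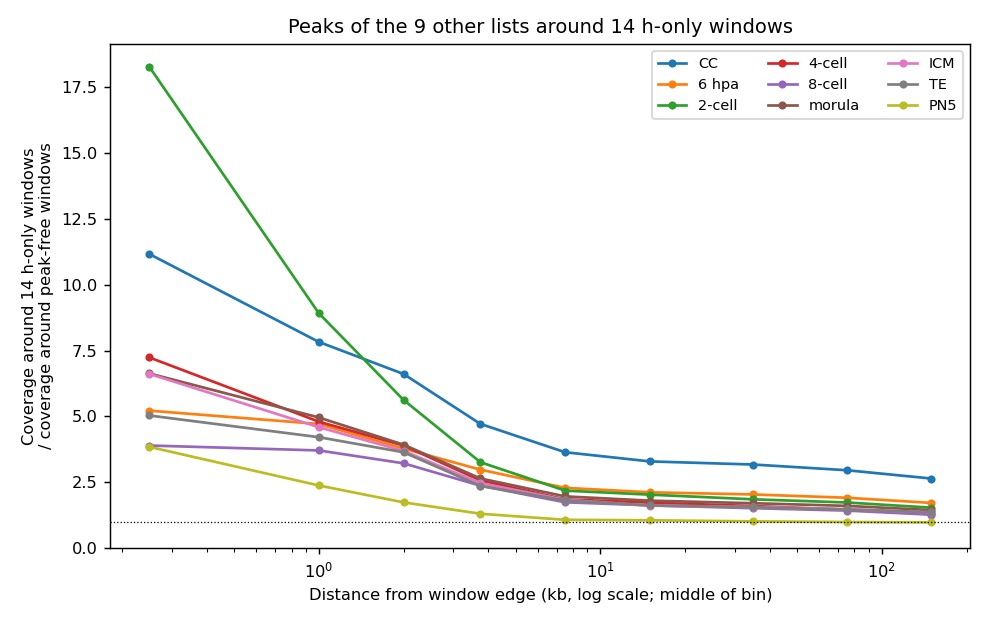
Coverage by peaks of the 9 other lists around 14 h-only windows divided by coverage around 20000 windows with no peak in any list, against distance from the window edge in kb (log scale, points at the middle of each distance bin); the dotted line marks equal coverage. CC stays highest from 5 kb outwards and is at 2.64 between 100 and 200 kb, while PN5 falls to 0.978.

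By the share with a peak within 5 kb, though not at other distances, CC-only windows had nearly the same surroundings in most lists. Within 1 kb the CC-only share was lower, with 11.39% against 17.96% in the 2-cell list and 7.34% against 16.54% in PN5. Only 6 hpa went the other way there (26.79% against 23.32%). Coverage over 50 kb was higher around CC-only windows, with 11.6% against 7.08% at 6 hpa and 7.70% against 5.76% in the 2-cell list. A peak within 5 kb was found around 68.89% of CC-only windows in the morula list, 57.12% in ICM, 58.11% in TE, 57.05% in the 8-cell list and 51.78% in the 2-cell list, against 67.95%, 56.90%, 57.88%, 59.86% and 50.83% around 14 h-only windows. The CC-only share was higher at 6 hpa (74.18% against 64.34%) and lower in PN5 (36.03% against 42.42%). Around 6 h-only windows the morula share was 30.47%, and around PN5-only windows 27.95%. Relative to its autosomal coverage, CC covered 1.71 times as much around 14 h-only windows, 3.89 times around CC-only windows, 0.786 times around 6 h-only windows and 0.388 times around PN5-only windows. PN5 covered 0.856 times its autosomal level around 14 h-only windows and 1.90 times around its own.

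At the scale of 1 Mb, 14 h-only density climbed with CC coverage. The 2403 bins of 1 Mb with at least 50% assembled sequence were ordered by the share covered by CC peaks and split into 5 groups of 480 or 481 bins. The 14 h-only density was 0.891 per Mb (exact Poisson 95% interval 0.808 to 0.979) in the group with the least CC coverage, then 1.08, 1.39 and 2.28, and 4.12 per Mb (3.94 to 4.30) in the group with the most. PN5-only windows ran the other way, from 14.5 to 5.13 per Mb, and 6 h-only windows stayed between 2.91 and 3.81 per Mb. The other 14 hpa windows are not given for these groups, so whether the climb was particular to 14 h-only windows was not tested. Within 50 kb, CC coverage was 30.7% around the other 14 hpa windows and 15.1% around 14 h-only windows. Spearman's rho between 14 h-only windows and CC coverage was 0.439 across the 2403 bins, which share libraries and are not independent. GC content of the 5 groups lay between 41.1% and 42.9%. In all, 703 bins held no 14 h-only window, the median bin held 1, and 32 bins held 10 or more.

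**Figure D4:**
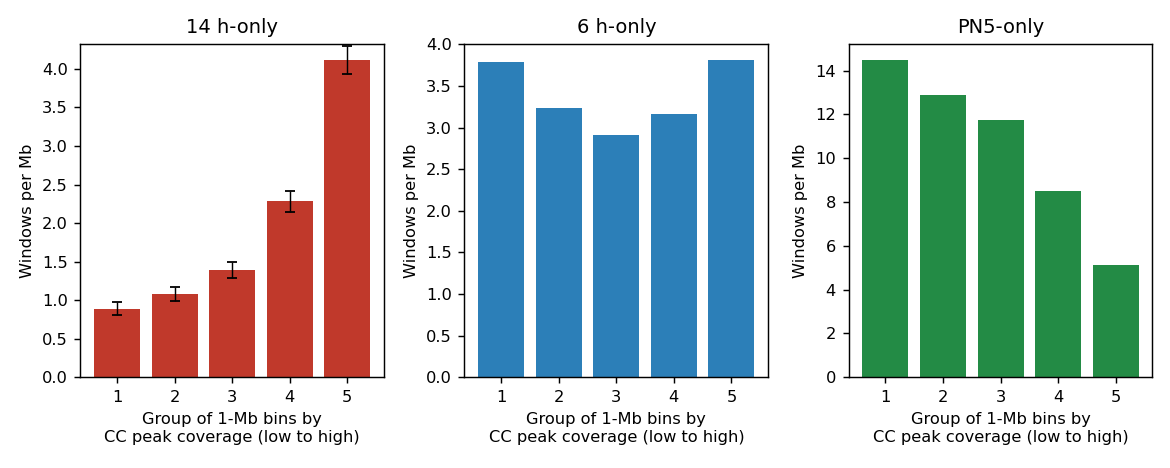
Windows per Mb found at 14 hpa alone, at 6 hpa alone and in PN5 alone in 5 groups of 1-Mb bins ordered from low to high CC peak coverage (each panel on its own axis; bars on the 14 h-only panel are exact Poisson 95% intervals). 14 h-only density climbs from 0.891 to 4.12 per Mb, PN5-only density falls from 14.5 to 5.13, and 6 h-only density stays between 2.91 and 3.81.

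The fullest bins, with 17 windows each, were chr1:20000001-21000000, which holds Pkhd1, and chr9:16000001-17000000, where Fat3 is the only protein-coding gene. The bin at the start of the assembled sequence of chromosome 1, with Xkr4 and Rp1, and the Agbl1 bin on chromosome 7 held 16 each. CC coverage in these bins was 13.98%, 29.63%, 38.60% and 31.89%.

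Protein-coding genes held a 14 h-only window in 905 of 20807 cases (4.35%), 686 of them a single window, and 1286 windows touched such a gene. Long genes led the ranking. A window was found in 1.11% of genes under 20 kb and in 56.42% of the 218 genes of at least 500 kb. Per length the difference was smaller, with 1.42 windows per Mb (1.19 to 1.69) under 20 kb, 1.08 per Mb (0.970 to 1.20) from 20 to 100 kb, 1.16 per Mb (1.06 to 1.27) from 100 to 500 kb and 1.94 per Mb (1.75 to 2.15) in the longest class. 6 h-only windows showed the reverse, from 18.1 per Mb in the shortest genes to 2.21 per Mb in the longest.

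The 15 genes with the most windows held 145 between them, of which 97 had GC below 40% and 5 touched an exon. Pkhd1 (chr1:20057779-20618064), which encodes the ciliary protein fibrocystin, held 16 windows spread over 478 kb with none adjacent. Their fold lay between 2.32 and 2.81, 9 of them were in peaks that no other list touched, and 2 touched an exon. Along the Pkhd1 body CC peaks covered 17.8%, 14 hpa peaks 16.9%, 6 hpa peaks 7.87%, 2-cell peaks 5.64% and PN5 peaks 1.39%. The stretch of Pkhd1 shown above came from its window of highest fold (2.81).

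Nrg1, a ligand of ErbB receptors, held 13 windows over 778 kb with folds of 2.35 to 3.29, and none touched an exon. Gabrg3, a subunit of the GABA-A receptor, held 11, and Opcml, an adhesion molecule of the IgLON family, 10. Gpc5, a cell-surface heparan sulfate proteoglycan, also held 10, all with folds of at most 3.11. Unc5d, a netrin receptor, held 8 in a body of which CC peaks covered 53.98% and 14 hpa peaks 25.27%.

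Grm8, a metabotropic glutamate receptor gene, held 8 windows with folds of 2.37 to 3.18. Fat3, an atypical cadherin, Csmd1, a complement-control protein, the postsynaptic scaffold gene Dlg2 and the orphan receptor gene Gpr158 also held 8 each. All 8 windows of Csmd1 were in peaks that no other list touched. In Dlg2 the windows were the most AT-rich, with a median GC of 33.5%. Others were Xkr4 with 10, Sgcd, which encodes delta-sarcoglycan of muscle membranes, with 10, and Agbl1, a carboxypeptidase gene, with 9.

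Across the genes named here from this ranking, the CC list covered between 4.74% (Dlg2) and 53.98% (Unc5d) of the gene body. PN5 covered between 0.814% (Unc5d) and 3.496% (Gabrg3).

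Ranked by density among protein-coding genes of at least 20 kb, the shorter genes with a few windows came first. Crxos, a homeobox gene on the strand opposite Crx, led with 3 windows in 21.4 kb (14.0 per 100 kb). An adjacent pair lay on 1 peak of fold 2.75, and the third window lay on a shared peak. Vmn2r21, a pheromone receptor gene, held 4 in 40.9 kb (9.78 per 100 kb), with folds of 2.34 to 2.45. Rnf24, a RING finger gene, held 3. Sept14, Paip2b, Parp12, 4921524L21Rik and Bbs7 held 2 each, and Chil3 and Chst12 a single one. CC peaks covered 0% of Parp12, a gene for an ADP-ribosyltransferase, and 48.5% of Chil3, which encodes a chitinase-like protein of macrophages.

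The 14 h-only windows covered at least 50% of the bases within 1 kb of the annotated start in 2 protein-coding genes. A single window cannot reach 50% of this region, so the limit was open only to neighbouring windows and the count does not measure how often promoters were marked. At Gal3st2 (chr1:93861306-93876494, plus strand), a sulfotransferase gene, 14 hpa peaks covered 1268 bases of this promoter region (63.4%) with a fold of 3.09. At Lrrc6 (chr15:66379858-66500910, minus strand), a gene for assembly of ciliary dynein arms, they covered 593 bases (29.6%) with a fold of 2.26, so the windows over the Lrrc6 start were only partly filled.

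Gene families differed in density, over all protein-coding genes 1.30 windows per Mb of gene body (1.23 to 1.37). Sensory receptor genes, which are short, were high per Mb but not in the share of genes with a window. Olfactory receptors had a window in 35 of 1128 genes (3.10%, 2.24 to 4.29, against 4.35% of all protein-coding genes), or 5.00 per Mb (3.53 to 6.86). Vomeronasal receptors had one in 17 of 327 genes (5.20%, 3.27 to 8.17), or 4.02 per Mb (2.49 to 6.14), and 3.28 per Mb without Vmn2r21. Both families also held many other 14 hpa windows, 65.6 and 188 per Mb against 48.7 over all genes.

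The large adhesion and synaptic genes, with a median length of 1073 kb, had a window in 29 of 50 (58.00%) and a density of 1.92 per Mb (1.58 to 2.33). Both values were near those of all genes of at least 500 kb (56.42% and 1.94 per Mb). The list had other 14 hpa windows at 47.4 per Mb. Glutamate receptors had one in 5 of 26, at 2.30 per Mb (1.42 to 3.51), and at 1.57 per Mb without the top gene. GABA receptors had one in 2 of 16, at 4.76 per Mb (2.46 to 8.32), but 11 of the 12 windows lay in Gabrg3 and the density was 0.541 per Mb without it. Potassium channel genes were at 1.54 per Mb (0.881 to 2.50) with 11 of 92 genes, and cadherins at 1.14 per Mb (0.460 to 2.36) with 4 of 23.

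Zinc finger genes, many of which carry H3K9me3 in somatic cells, were at 1.76 per Mb (1.10 to 2.66) with 19 of 385 genes. Cytochrome P450 genes were at 3.004 per Mb (1.30 to 5.92) with 6 of 100, and at 2.29 per Mb without the top gene. Zinc finger and P450 genes also held many other 14 hpa windows, 102 and 185.5 per Mb against 48.7 over all genes. In the serpins, 3 windows in Serpinb3b made up the whole count. The 12 clustered protocadherin models with a window shared a single window, so their density of 2.32 per Mb counts it repeatedly. Solute carriers were below the average, at 0.657 per Mb (0.350 to 1.12) with 10 of 372 genes.

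No 14 h-only window touched any of 110 keratin and keratin-associated genes, 92 ribosomal protein genes, 39 Hox genes, 25 two-cell genes (Zscan4, Usp17l, Dux, Tdpoz, Tcstv and Zfp352) or 16 lineage and pluripotency regulators. These lists are short in sequence, between 0.120 and 1.00 Mb, and a count of 0 allows 3.69 windows per Mb in ribosomal protein genes and 30.8 per Mb in two-cell genes. The two-cell genes were not unmarked at 14 hpa, since 15 of 25 held a 14 hpa window that another list also touched. Over all protein-coding genes, 7196 of 20807 held such a window. Their density was 333.9 per Mb in two-cell genes and 48.7 per Mb over all genes.

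**Figure D5:**
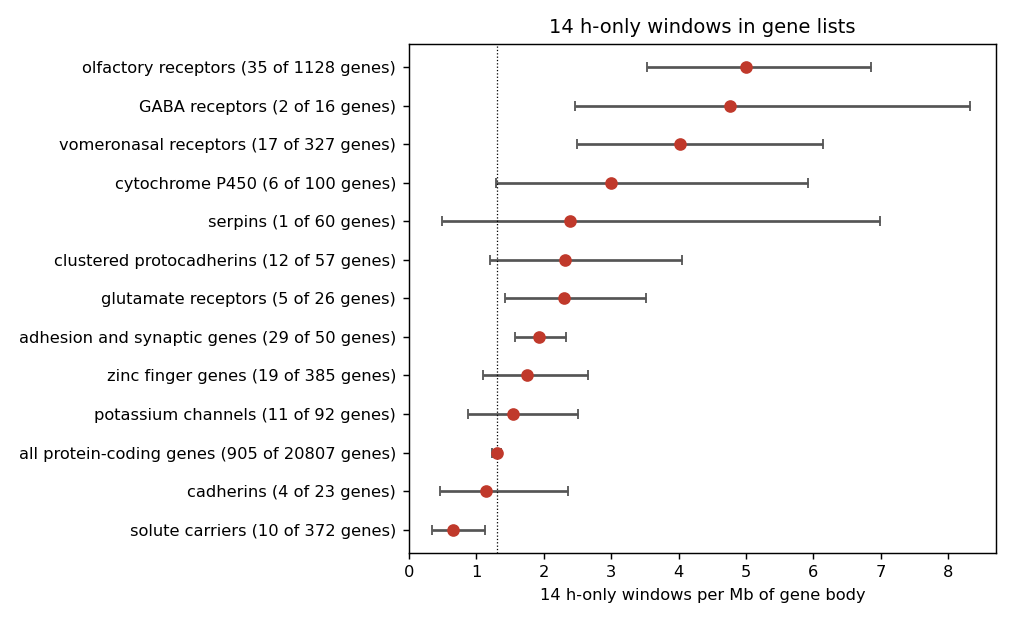
14 h-only windows per Mb of gene body in each gene list with at least 1 window (points) with exact Poisson 95% intervals (bars); labels give genes with a window of genes annotated, and the dotted line marks all protein-coding genes (1.30 per Mb). Olfactory receptors (5.00) lie highest and solute carriers (0.657) lowest; the GABA receptor value rests on Gabrg3.

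The 9 runs of 3 kb were the longest uninterrupted 14 h-only stretches. The fullest, chr6:137596001-137599000 in an intron of Eps8, which encodes a regulator of actin filaments, was covered over 2720 bases with a fold of 3.51 and GC of 46.3%. Peaks of all 9 other lists lay within 809 bp of it, the nearest from the 8-cell stage at 381 bp. The run at chr8:62435001-62438000 was the opposite kind, with no protein-coding gene within 312 kb, 35.9% GC and 84.0% masked bases, at a fold of 2.49. The run at chr2:107431001-107434000 lay 132 kb from Kcna4, with 99.0% masked bases, and its nearest peak in any other list was 6941 bp away.

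The run at chr6:49348001-49351000, 6.42 kb from Ccdc126, had 46.7% GC, a fold of 3.13 and a PN5 peak 237 bp away. The run at chr1:5455001-5458000 had 36.6% GC, a fold of 2.40 and a CC peak 766 bp away. Of these 5 runs, those in Eps8 and near Ccdc126 were on peaks that other lists touched further along.

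Of the 144004 autosomal peaks at 14 hpa, 12685 (8.81%) touched no other list. They were narrow, with a median of 318 bp against 956 bp for shared peaks, so 8600 were under 500 bp and could not fill a window. The strongest of them were therefore mostly outside the 14 h-only windows. The highest fold, 9.02, was at chr17:5579715-5580191 in an intron of Zdhhc14, a palmitoyltransferase gene, and a 4-cell peak lay 147 bp away. Next came chr1:57234217-57234527 (6.49, no gene), chr8:121688285-121688887 (6.27) in an intron of the model Gm20388, which alone among these 5 carried a 14 h-only window, and chr13:118079649-118079929 (6.09, no gene).

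The fifth, chr11:60600872-60601279 with a fold of 5.82, overlapped an exon of the unprocessed pseudogene Gm12627. The next 2 in rank, named after their values were seen, lay nearby at chr11:60666700-60667085 (5.78) and chr11:60591699-60592030 (5.75), in the unprocessed pseudogenes Gm12624 and Gm12621. They are copies of one sequence, 65.8 kb and 9.17 kb from the first. Identity was 99.4% over 337 bases between the first and the second, 99.4% over 332 bases between the first and the third, and 99.7% over 294 bases between the others. In the 150 aligned bases shown, on the plus strand, capitals mark the 2 positions that differ.

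copy in Gm12627, chr11:60600943-60601092: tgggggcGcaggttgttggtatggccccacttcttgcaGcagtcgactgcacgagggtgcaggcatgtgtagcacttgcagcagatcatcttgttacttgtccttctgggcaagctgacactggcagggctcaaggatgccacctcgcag
copy in Gm12624, chr11:60666700-60666849: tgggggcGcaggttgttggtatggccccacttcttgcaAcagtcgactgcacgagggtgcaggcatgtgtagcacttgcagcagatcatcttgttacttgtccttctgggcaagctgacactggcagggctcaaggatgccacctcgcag
copy in Gm12621, chr11:60591737-60591886: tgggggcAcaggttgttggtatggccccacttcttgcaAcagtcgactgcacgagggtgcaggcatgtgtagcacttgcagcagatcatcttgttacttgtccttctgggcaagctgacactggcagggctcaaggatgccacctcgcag

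Reads from any of the 3 copies can be placed at the others, so their similar folds are not 3 independent measurements. No list other than 14 hpa had a peak within 5 kb of any of them, the nearest being a 2-cell peak 5322 bp from the third copy.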

How the data were processed

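Per the labels and the study's methods, the authors trimmed reads with cutadapt (version 1.16), aligned them to mm10 with BWA, merged the libraries of a stage with SAMtools, removed duplicates and drew equal read numbers with Picard, and called broad peaks over input with MACS2. The other versions and the peak threshold are not given in the sources used here. Each deposited peak carries a fold enrichment, a ratio to input, and a −log10 q-value, both computed by the authors' caller. The lists hold no read counts, so the read number that the methods state for all lists cannot be checked from them, and the reads behind a single value are unknown.

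Peaks were merged and counted in 1-kb windows from position 0 of the 19 autosomes with Python 3.11.15, numpy 2.4.6 and pandas 2.3.3. Sequence came from GRCm38.p6 and genes from GENCODE M21. Sets were compared as shares with Wilson 95% intervals (counting error only) and by the number of autosomes on which a share was higher. No test over samples was possible. The window counter was tested on simulated lists with planted windows. Comparison windows needed at least 500 assembled bases, and those with no peak were added as a comparison after the data had been seen. Regions named were the 5 longest runs (ties by covered bases) and the 5 unshared peaks of highest fold. Genes named were the 15 with the most windows (1 of them is not reported here), the 10 of at least 20 kb with the highest density, and those with at least 50% of the promoter covered. The members and the gene lists were chosen with earlier results of these data known. The 7 alternatives included stricter q-values and a shifted grid.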

Additional observations from a re-analysis of the deposited data

Results flagged for a closer look

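The X chromosome lies outside the autosomal comparisons. Of its 27337 windows marked at 14 hpa, 992 met the same condition (3.63%, Wilson 95% interval 3.41 to 3.86), or 6.07 per Mb against 1.94 per Mb on the autosomes. The share lay within the range of single autosomes (1.38% to 3.80%), whereas the density lay above that of each autosome (at most 2.75 per Mb). X also held more 14 hpa windows than any autosome, of which chromosome 7 had the most (21966). GC was below 40% in 52.32% of these 992 windows. Each list is a single pooled value here too, so the difference from the autosomes was not tested.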

How the results depend on the processing

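No paired analysis was possible because each stage reached the deposited lists as 1 pooled value, which also meant that leaving out a replicate was not an option. Of 28 recomputed values, 9 moved by less than the tolerance, and 19 moved. The number of windows was 4780 on a grid shifted by 500 bases, 687 when all 1000 bases had to be covered, 22443 when under 500 bases were allowed in each other list, 7431 with −log10 q of at least 2 in all lists, 2992 with that limit at 14 hpa alone, 2754 with all lists trimmed to the covered length of the shortest, and 8112 without the PN5 list. Of the 2754 windows, 1067 were among the 4661. In the same order from full coverage, and leaving out the 14 hpa limit, the share with GC below 40% was 69.72%, 48.50%, 45.65%, 56.32% and 43.66%, against 59.36%. The share outside genes was 61.62% with the q limit in all lists, 63.90% with it at 14 hpa alone and 54.22% without PN5, against 65.76%. Soft-masked bases made up 53.76% with full coverage, 52.62% with under 500 bases allowed, 48.52% with the q limit in all lists, 58.59% after trimming and 43.90% without PN5, against 50.61%. Without PN5 the other 14 hpa windows stood at 65.88% outside genes and 56.39% soft-masked bases, both above the 14 h-only values. Fewer or more windows enter under each of these settings by construction, and other causes were not tested. In the 6 settings where it was recomputed, the share with GC below 40% stayed above that of the other 14 hpa windows, which lay between 16.5% and 19.3%. Without PN5 it was not above that of windows with no peak in any list (43.68%). The methods state equal read numbers for all lists, but the lists hold no reads per window, so a missing peak cannot be told from one below the threshold.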

Other observations

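The 14 h-only windows of highest fold, named after their values were seen, were of several kinds. The highest, 7.15, was at chr11:3601001-3602000, 47.2 kb from Morc2a and with 597 bases covered. A 2-cell peak lay 49 bp away. The window at chr4:8732001-8733000, in an intron of Chd7, a chromatin remodeller gene, had a fold of 5.76. At chr6:123358001-123359000, 14.5 kb from the pheromone receptor gene Vmn2r20, the whole window was covered with a fold of 5.59, 96.9% of its bases were masked, and a CC peak lay 65 bp away. Among the longest runs, chr13:119882001-119885000 lay 8.39 kb from Tcstv1, a gene of the two-cell stage, with 33.7% GC, a fold of 2.56 and a 6 hpa peak 177 bp away.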
